A study of Sus scrofa with 6 samples.

Results

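The genes described here are KITLG and KIT, the ligand and receptor of one signalling axis, and 4 regulators of spermatogonial differentiation: SOHLH1, SOHLH2, DMRT1 and CCND2. They were taken by symbol from a table of 29884 genes, in which 5 of the 6 were found. SOHLH2 was matched neither by its symbol nor by a human match and was not analysed here. The 5 genes found, KITLG, KIT, SOHLH1, DMRT1 and CCND2, all passed the filter of a mean of at least 0.5 FPKM, read fragments scaled by gene length and library size. Genes were measured by RNA sequencing in 6 libraries of pig (Sus scrofa) testis cells labelled as primitive spermatogonia. The RA group held 3 libraries of cells given all-trans-retinoic acid at 2 umol/L, and the control group held 3 libraries of cells given 0.1% ethanol instead. The labels give no age, strain, culture time or number of animals, and the spread that enters the p-values is that among these 6 libraries, part or all of which may be technical.

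KIT is a receptor tyrosine kinase that, in the mouse testis, appears on spermatogonia as they begin to differentiate. Its ligand KITLG, or stem cell factor, is made in the testis by Sertoli cells, the somatic cells that support germ cells, as a membrane-bound or a shed protein. In the mouse, SOHLH1 and SOHLH2 are germ cell basic helix-loop-helix (bHLH) factors that promote differentiation and KIT expression, while DMRT1, a DM domain factor of germ and Sertoli cells, restrains entry into meiosis. CCND2 is a D-type cyclin, a partner of CDK4 and CDK6 in the G1 phase, and it appears in mouse spermatogonia around the step to differentiation. Retinoic acid starts that step in the mouse.

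Library totals lay between 63836470 and 87520891 reads in RA and between 62084199 and 79752197 reads in control. RA replicate 2 stood apart from its group, with a mean correlation across genes of 0.984 with the other RA libraries, against 0.989 to 0.991 for RA replicates 3 and 1 and 0.994 to 0.995 among control libraries. It was the lowest of the 6 libraries in 30.3% of the 14567 genes tested, so log2 changes below that moved by over 1.5 times, changed sign or changed call without it are also given without it. The germ cell helicase gene DDX4 was present at 4.57 to 5.29 FPKM in RA and 6.89 to 7.54 in control, and the germ cell RNA-binding gene DAZL at 14.0 to 16.9 FPKM in RA and 18.0 to 19.8 in control. The Sertoli cell gene CLU was present at 9373 to 10056 FPKM in RA and 9007 to 9473 in control, so the libraries held Sertoli cell transcripts beside germ cell ones. These 3 marker genes were chosen after their values were seen. CLU stands here for the presence of Sertoli cell transcripts only. Of 11 Sertoli cell markers, 6 were lower in RA and 2 higher, as given below. In such mixed samples, fewer cells of a type and less RNA per cell cannot be told apart.

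The comparison asked how RA changed these genes. KITLG and DMRT1 fell, CCND2 rose, and KIT and SOHLH1 did not pass the test. Of the 5 genes, 3 were called at an adjusted p under 0.05 (limma on log2(FPKM + 1), two-sided, Benjamini-Hochberg adjustment over all genes tested), where 25.9% of all genes were called, 13.9% as higher and 12.0% as lower. In the same 3 genes the RA and control libraries did not overlap, as in 48.0% of all genes. The members called were the same in every one of 17 alternative analyses. Log2 changes below are RA minus control on the log2(FPKM + 1) scale, which understates changes of low genes.

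**Figure D1:**
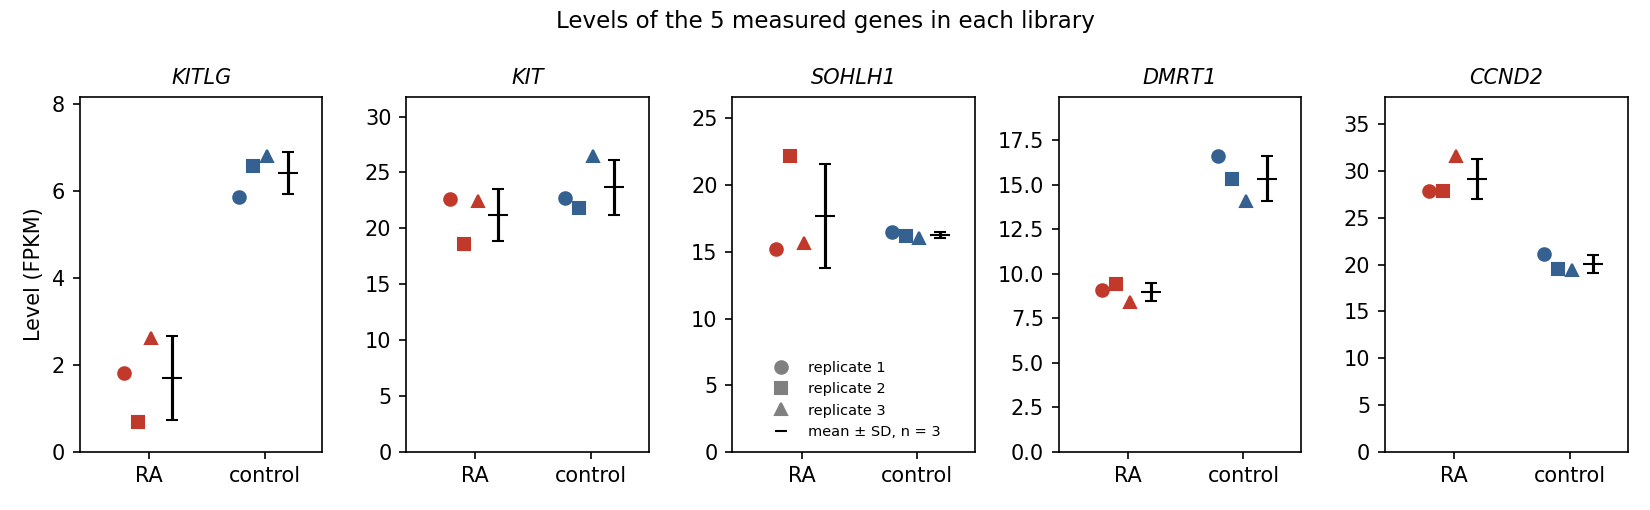
FPKM of KITLG, KIT, SOHLH1, DMRT1 and CCND2 in each of the 3 RA and 3 control libraries (symbols mark the replicate number, bars the mean ± SD), with each axis starting at 0. RA lies wholly below control for KITLG and DMRT1 and wholly above it for CCND2, while the groups overlap for KIT and SOHLH1.

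KITLG, on chromosome 5 from 94016992 to 94110219 on the plus strand, was at 1.80, 0.697 and 2.61 FPKM in RA replicates 1, 2 and 3 and at 5.86, 6.57 and 6.80 FPKM in control replicates 1, 2 and 3. All RA libraries were below all control libraries, and RA replicate 2 was the lowest. These levels rest on 916, 296 and 966 reads in RA and 2714, 2887 and 2451 reads in control. Mean FPKM was 3.77 times higher in control than in RA, and the log2 change was -1.52 ± 0.25 (SE; adjusted p = 0.00401, limma) with a 95% interval from -2.10 to -0.94. Of the 14567 genes, 55 had a lower log2 change. RA replicate 2 carried part of the size of the fall: KITLG stood at 28.1%, 10.9% and 40.7% of the control mean in RA replicates 1, 2 and 3. Without RA replicate 2 the log2 change of KITLG was -1.22 (limma adjusted p = 8.98e-05), and after a correction of each library for gene length it was -1.40 (limma adjusted p = 0.00144). In the authors' deposited table KITLG has a log2 fold change of -1.89 and an FDR of 0.00215.

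Sertoli cell markers, the list of a cell type that makes KITLG, moved in both directions in RA. Of 11 measured markers 2 were called higher and 6 lower, DHH and INHA being the higher ones, where 13.9% of all genes were called higher and 12.0% lower; the same shares apply to each marker list below. INHA lost its call without RA replicate 1 or 3, without any 1 control library, with the replicate number as a block, without the filter, after the correction for gene length and in edgeR, which left a higher count of 1. The 6 lower ones were AMH, CLDN11, FSHR, GATA4, GDNF and SOX9. The median log2 change of the list was -0.32, against -0.01 over all genes. The summed level of the 11 markers was 10051 to 10801 FPKM in RA and 10149 to 10747 in control, most of it CLU. CLU was not called (limma adjusted p = 0.659), and the sum says little about the other markers. No marker of that list was at 0. Their part in the fall of KITLG was not tested.

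KIT, on chromosome 8 from 41402334 to 41492306 on the plus strand, was at 22.7, 18.6 and 22.4 FPKM in RA replicates 1, 2 and 3 and at 22.7, 21.8 and 26.5 FPKM in control replicates 1, 2 and 3. The groups overlapped, with RA replicate 2 lowest and control replicate 3 highest. The log2 change of KIT was -0.15 ± 0.10 (SE, limma adjusted p = 0.305), and its 95% interval ran from -0.40 to 0.09. On the FPKM + 1 scale that interval spans a fall of 24.0% and a rise of 6.45%, so a larger rise of KIT lies outside it in the fit of all 6 libraries. With 5051 to 7379 reads in RA and 6118 to 6736 in control, counting error was small beside the spread between libraries. Without RA replicate 2 the log2 change was -0.06 ± 0.08 (SE, limma adjusted p = 0.608), and without control replicate 3 it was -0.07 ± 0.11 (SE, limma adjusted p = 0.674), so the interval depends on single libraries.

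KIT exceeded KITLG by a wider margin in RA. The ratio of KIT to KITLG, both in FPKM and so per length of gene, was 12.6, 26.6 and 8.59 in RA replicates 1, 2 and 3 and 3.87, 3.32 and 3.89 in control replicates 1, 2 and 3. The groups did not overlap, and the ratio varied more among RA libraries than among control libraries. With KIT not called, the ratio mainly restates the KITLG values given above and is no further result.

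KIT is also made outside the germ line, in mast cells, melanocytes and Leydig cells. Of 8 mast cell markers, 6 had a mean under 0.5 FPKM, among them the protease CPA3 and the IgE receptor chain MS4A2, and the list summed to 3.03 to 3.75 FPKM in RA and 3.31 to 3.46 in control. The melanocyte markers summed to 4.95 to 6.35 FPKM in RA and 5.40 to 7.14 in control, with 0 of 6 tested called higher by limma and 1, DCT, lower. DCT passed the filter only through its control values, so its call is not read further, and under a filter of a mean of 1 FPKM the lower count was 0. Leydig cell markers summed to 217 to 233 FPKM in RA and 196 to 214 in control, with 1 of 6 tested called higher and 3 lower. The germ cell markers summed to 218 to 233 FPKM in RA and 321 to 327 in control, with 0 of 12 called higher by limma and 6 lower. Calls were lost for 2 of these 6 when 1 library was left out: DDX4 without control replicate 2 (limma adjusted p = 0.0577) and ZBTB16 without RA replicate 1 or control replicate 1 (limma adjusted p = 0.0558 and 0.0551). Wherever a marker list or the DM domain list below has a count of 0 in a direction, the count at an unadjusted limma p under 0.05 and the counts by edgeR and DESeq2 were 0 too. The part of any of these cells in the level of KIT was not tested.

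KIT lies between the genes of the related receptors PDGFRA and KDR, 381 kb and 317 kb away. PDGFRA, the platelet-derived growth factor receptor alpha, was at 24.9, 22.1 and 24.2 FPKM in RA replicates 1, 2 and 3 and at 42.1, 42.7 and 46.0 FPKM in control replicates 1, 2 and 3. All RA libraries were below all control libraries, and PDGFRA fell by 0.85 on the log2 scale (limma adjusted p = 0.000176). KDR, the main receptor for vascular endothelial growth factor, was at 1.91 to 2.20 FPKM in RA and 2.53 to 2.73 in control, with no overlap and a log2 change of -0.24 (limma adjusted p = 0.0876). KDR was called lower by edgeR (adjusted p = 0.0456), DESeq2 (adjusted p = 0.0180) and limma with array weights (adjusted p = 0.00551). Array weights, which weight each library by its spread, were 6.67 for RA replicate 1 and 0.169 and 0.810 for RA replicates 2 and 3. In the RA group, calls under these weights, here and below, rest mainly on replicate 1. Of 17 rows next to or overlapping the 5 genes, 10 passed the filter. PDGFRA was the 1 called in the limma fit reported, where 25.9% of all genes were called.

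Among other class III receptors, the family of KIT, and their ligands, 5 of 8 genes tested were not called. Of 8 tested, IL34 and PDGFD rose and PDGFRA fell, against 13.9% of all genes called higher and 12.0% called lower, and the median log2 change of the list was 0.12 against -0.01 over all genes. IL34, a ligand of the macrophage receptor CSF1R, was at 22.5, 26.4 and 21.8 FPKM in RA replicates 1, 2 and 3 and at 5.78, 6.09 and 5.62 FPKM in control replicates 1, 2 and 3. Every RA library was above every control library, and the log2 change was 1.84 ± 0.09 (SE; adjusted p = 1.90e-05, limma). PDGFD, a platelet-derived growth factor, was at 18.9 to 26.6 FPKM in RA and 11.9 to 14.2 in control (log2 change 0.81, limma adjusted p = 0.00419), and PDGFA had a log2 change of 0.22 (limma adjusted p = 0.0712). Without RA replicate 2 PDGFA was called (log2 change 0.24, limma adjusted p = 0.0415), as it was with libraries weighted by their spread (limma adjusted p = 0.00242).

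**Figure D2:**
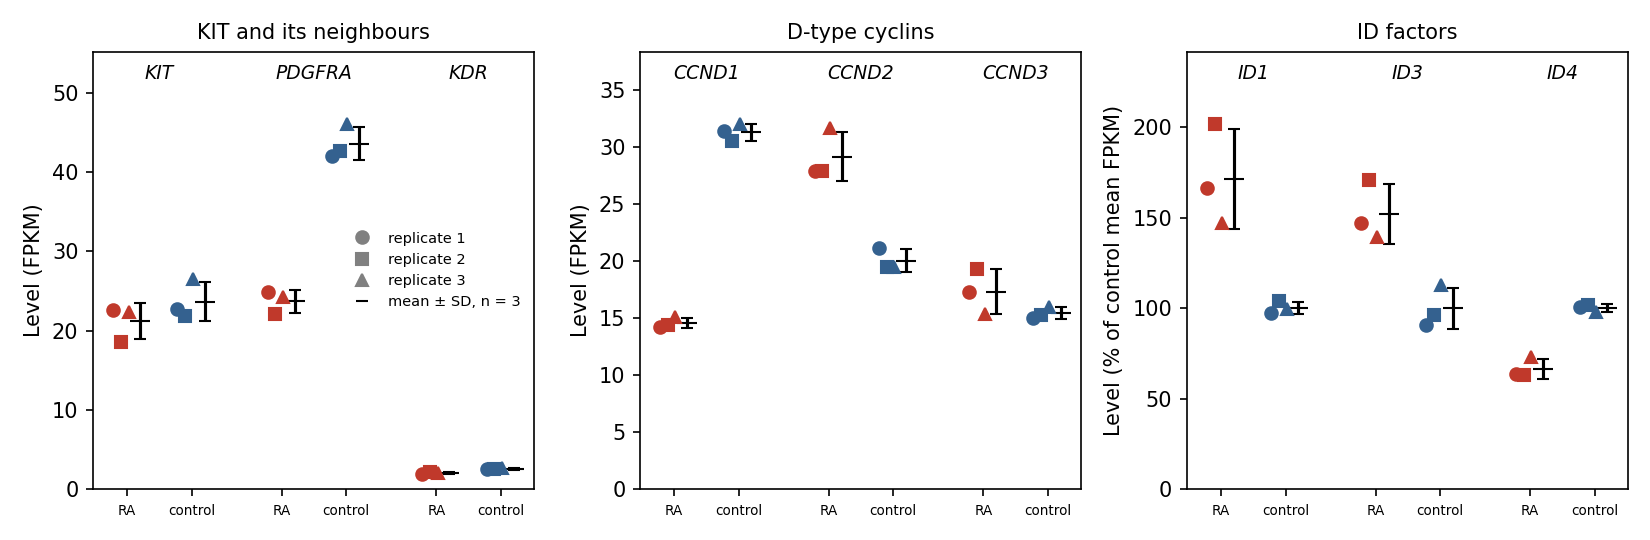
Levels in each RA and control library (symbols mark the replicate number, bars the mean ± SD) of KIT, PDGFRA and KDR in FPKM, of the 3 D-type cyclins in FPKM, and of ID1, ID3 and ID4 as a percentage of their control mean. PDGFRA, CCND1 and ID4 lie lower in RA and CCND2, ID1 and ID3 higher, with no overlap of the groups, while KIT and CCND3 overlap.

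Signalling genes that act between KIT and the nucleus, with a pair of proteases that can shed its ligand, held 45 measured members. Of these 3 were higher in RA (6.67%, against 13.9% of all genes) and 8 were lower (17.8%, against 12.0%), and the median log2 change was -0.16 against -0.01 over all genes. Without control replicates 1, 2 and 3 the lower count was 5, 4 and 4. Over all genes it moved too, from 1750 to 1206, 1005 and 1113. With libraries weighted by their spread (array weights) 6 of the list were higher and 15 lower. Over all genes, 3410 were then higher and 3621 lower, against 2019 and 1750 in the fit reported. SRC, a kinase that docks on active KIT, was at 19.3, 20.6 and 19.0 FPKM in RA and at 12.4, 12.5 and 12.3 FPKM in control, in the order of the replicate numbers. The groups were far apart for their spread (log2 change 0.62 ± 0.07 SE, limma adjusted p = 0.000587).

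MAP2K1, which encodes the kinase MEK1 of the MAP kinase cascade, was at 10.8, 10.7 and 9.73 FPKM in RA replicates 1, 2 and 3 and at 15.4 FPKM in each control library. Every RA library was below every control library (log2 change -0.52, limma adjusted p = 0.00187). FOXO3, a transcription factor that PI3 kinase signalling keeps out of the nucleus, was at 9.86 to 13.4 FPKM in RA and 18.0 to 20.5 in control, again with no overlap (log2 change -0.63, limma adjusted p = 0.00668).

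STAT3 and STAT5A, transcription factors that cytokine receptors and KIT can activate, were higher. STAT3 was at 183 to 186 FPKM in RA and 149 to 156 in control (log2 change 0.28, limma adjusted p = 0.00817). STAT5A was at 22.5 to 28.0 FPKM in RA and 18.7 to 20.2 in control (log2 change 0.40, limma adjusted p = 0.0169), and its limma adjusted p was 0.0627 without RA replicate 1 and 0.0593, 0.0501 and 0.0684 without control replicates 1, 2 and 3. Of the 8 called lower, 4 (SOS1, PIK3R1, FYN and MMP9) each lost their call without control replicates 2 and 3, with limma adjusted p-values from 0.0503 to 0.136. RA replicate 2 was the lowest of the 6 libraries in 46.7% of these 45 genes, against 30.3% of all genes.

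**Figure D3:**
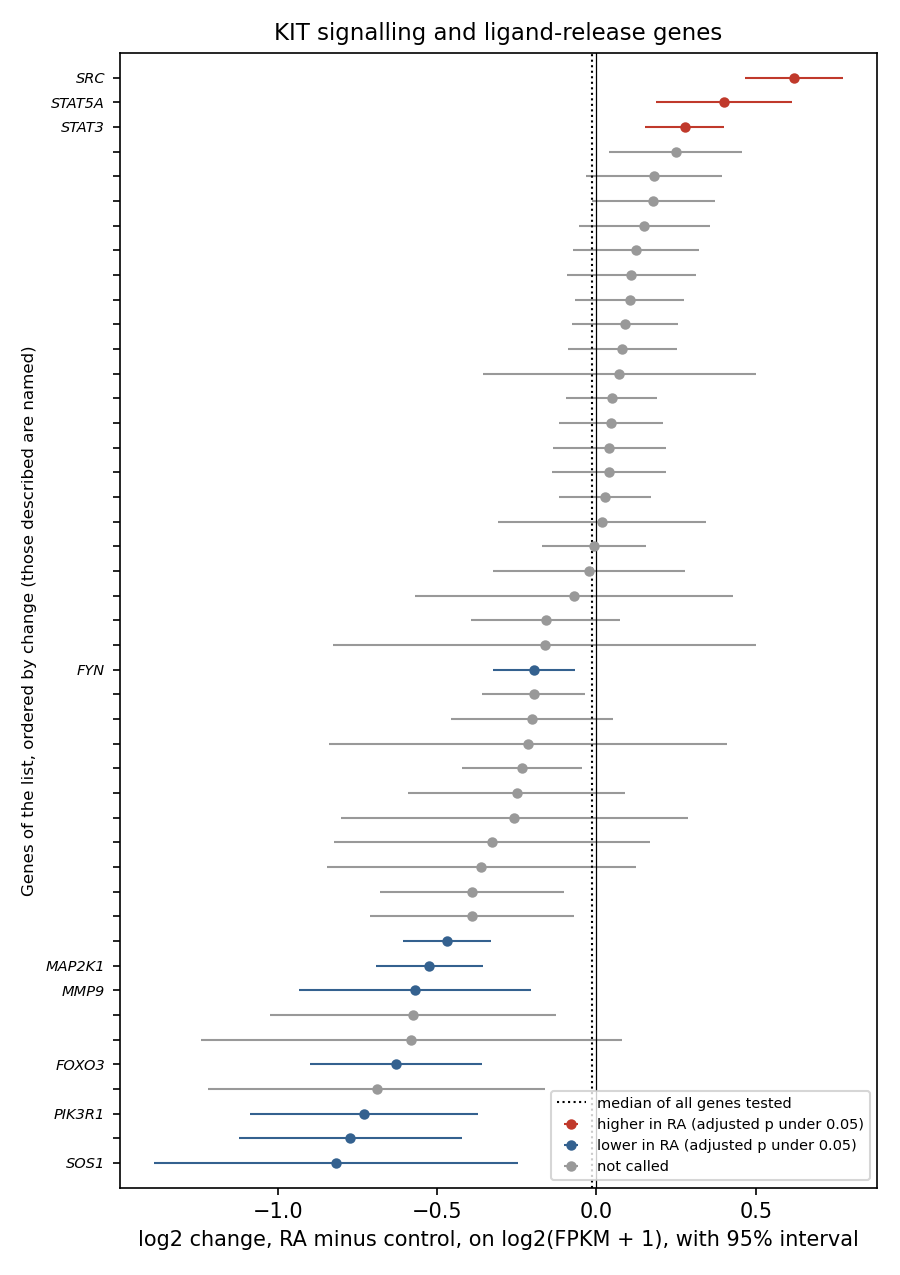
Log2 change (RA minus control, on log2(FPKM + 1), with 95% intervals from limma) of the 45 measured signalling and ligand-release genes, ordered by size, with names on those described. The 3 called higher (SRC, STAT5A, STAT3) and the 8 called lower stand beside 34 that were not called, and the dotted line marks the median of all genes.

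SOHLH1, on an unplaced scaffold from 1824608 to 1829213, was at 15.2, 22.2 and 15.7 FPKM in RA replicates 1, 2 and 3 and at 16.5, 16.2 and 16.0 FPKM in control replicates 1, 2 and 3. RA replicate 2 was the highest of the 6 libraries and the other RA libraries were the lowest. The log2 change was 0.10 ± 0.13 (SE, limma adjusted p = 0.615), with a 95% interval from -0.21 to 0.41, and its sign rested on RA replicate 2, without which it was -0.07 (limma adjusted p = 0.456). These levels rest on 1700 to 2757 reads in RA and 1690 to 2234 in control.

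Among bHLH partners and inhibitors of such factors, 8 were tested, 2 rose and 1 fell, against 13.9% and 12.0% of all genes, with a median log2 change of -0.05 against -0.01 over all genes. The movers were all ID genes, whose products bind bHLH partners and keep them off DNA. ID1 was at 225, 272 and 198 FPKM in RA and at 131, 140 and 134 FPKM in control, in replicate order (log2 change 0.76, limma adjusted p = 0.00240). ID3 was at 629 to 773 FPKM in RA and 412 to 511 in control (log2 change 0.61, limma adjusted p = 0.00612). ID4, which in the mouse marks spermatogonial stem cells, was at 31.8 to 36.8 FPKM in RA and 49.1 to 51.1 in control, and it fell by 0.57 on the log2 scale (limma adjusted p = 0.00123). In each of these 3 genes the groups did not overlap, as in 48.0% of all genes. These 3 genes were named for a small p, so the lack of overlap is no further result. The bHLH partner TCF12 was at 3.95 to 6.73 FPKM in RA and 7.32 to 8.18 in control (log2 change -0.43, limma adjusted p = 0.0967). Without RA replicate 2, its lowest library, the log2 change of TCF12 was -0.23 (limma adjusted p = 0.0627), and array weights called it (limma adjusted p = 0.0166).

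Other genes tied to spermatogonial differentiation gave 3 higher and 1 lower of 13 tested, against 13.9% and 12.0% of all genes, with a median log2 change of 0.04 against -0.01. REC8, a meiotic cohesin subunit, had a log2 change of 2.18 (limma adjusted p = 1.12e-05), the retinoic acid receptor gene RARG of 1.12 (limma adjusted p = 0.000261) and STRA8, which RA induces in mouse germ cells, of 1.10 (limma adjusted p = 0.00126). RARG was at 8.92, 10.8 and 9.19 FPKM in RA replicates 1, 2 and 3 and at 3.84, 3.62 and 4.22 FPKM in control replicates 1, 2 and 3, with no overlap. LIN28A, an RNA-binding protein of undifferentiated cells, was at 1.11 to 1.53 FPKM in RA and 1.89 to 2.03 in control (log2 change -0.37, limma adjusted p = 0.0304). LIN28A passed without RA replicate 2 but had limma adjusted p-values of 0.0851 and 0.0810 without RA replicates 1 and 3 and of 0.0675, 0.0997 and 0.100 without control replicates 1, 2 and 3. It also did not pass with the replicate number as a block (limma adjusted p = 0.0643) or in edgeR (adjusted p = 0.106) and DESeq2 (adjusted p = 0.113).

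DMRT1, on chromosome 1 from 220841485 to 220953442 on the minus strand, was at 9.11, 9.42 and 8.40 FPKM in RA replicates 1, 2 and 3 and at 16.6, 15.3 and 14.1 FPKM in control replicates 1, 2 and 3. All RA libraries were below all control libraries, and RA replicate 2 lay with the other RA libraries. Mean FPKM was 1.71 times higher in control, and the log2 change was -0.71 ± 0.09 (SE; adjusted p = 0.00108, limma) with a 95% interval from -0.91 to -0.51. The levels rest on 1180 to 1754 reads in RA and 1925 to 2920 in control. In the authors' deposited table DMRT1 has a log2 fold change of -0.74 and an FDR of 2.88e-07.

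DMRT1 is made by germ and Sertoli cells, and markers of both fell in part: 6 of 12 germ cell markers and 6 of 11 Sertoli cell markers were lower in RA, as given above. Their part in the fall of DMRT1 was not tested. Its cluster neighbours DMRT3 and DMRT2, 7.41 kb and 41.7 kb away, stayed under the filter. DMRT3 was at 0.244 to 0.349 FPKM in RA and 0.288 to 0.528 in control, and DMRT2 at 0.212 to 0.222 FPKM in RA and 0.226 to 0.350 in control. Of 6 other DM domain genes 2 were tested and 0 were called by limma. DMRTB1, a regulator of the switch to meiosis in the mouse, was at 3.34 to 5.03 FPKM in RA and 3.94 to 4.84 in control (log2 change -0.09, limma adjusted p = 0.648). With RA replicate 2 left out the log2 change of DMRTB1 was -0.20, and array weights called it lower and DMRTA1 higher. DMRTA1 had a log2 change of 0.20 (limma adjusted p = 0.141).

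CCND2, on chromosome 5 from 66092483 to 66114575 on the minus strand, was at 27.9, 27.9 and 31.6 FPKM in RA replicates 1, 2 and 3 and at 21.2, 19.5 and 19.5 FPKM in control replicates 1, 2 and 3. All RA libraries were above all control libraries. Mean FPKM in RA was 1.45 times that in control, and the log2 change was 0.52 ± 0.08 (SE; adjusted p = 0.00251, limma) with a 95% interval from 0.34 to 0.69. After the correction of each library for gene length the log2 change was 0.37 (limma adjusted p = 0.0241), the lowest of the 17 alternatives. The levels rest on 2466 to 2981 reads in RA and 1476 to 2063 in control. In the authors' deposited table CCND2 has a log2 fold change of 0.57 and an FDR of 4.09e-05. A non-coding row, LOC106507534, overlaps CCND2 on the other strand. It was at 1.01 to 1.32 FPKM in RA and 0.994 to 1.58 in control (log2 change -0.08, limma adjusted p = 0.648), or -0.12 with RA replicate 2 left out. The strand setting of the counting is not given in the sources used here, so reads of the overlap cannot be told apart.

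The 3 D-type cyclins moved differently. CCND1 was at 14.2, 14.4 and 15.1 FPKM in RA replicates 1, 2 and 3 and at 31.4, 30.5 and 32.0 FPKM in control replicates 1, 2 and 3, so every RA library was below every control library. CCND1 fell by 1.05 on the log2 scale (± 0.06 SE, limma adjusted p = 3.71e-05). CCND3 was at 15.4 to 19.3 FPKM in RA and 15.0 to 16.0 in control and overlapped (log2 change 0.15, limma adjusted p = 0.247, and 0.07 with limma adjusted p = 0.488 without RA replicate 2). Of the summed D-type cyclin FPKM, CCND2 made up 46.9%, 45.3% and 51.0% in RA replicates 1, 2 and 3 and 31.3%, 29.9% and 28.9% in control replicates 1, 2 and 3. CCND1 was the largest share in control, at 46.4% to 47.4%, and made up 23.4% to 24.3% in RA. These shares depend on the listed gene lengths, of which that of CCND2 is 1222 bases. The ratio of CCND2 to CCND1 was 1.93 to 2.10 in RA and 0.609 to 0.675 in control.

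The list of G1 machinery genes apart from CCND2 held 19 tested genes, with CCND1 and CCND3 among them. Of these, 1 was higher (5.26%, against 13.9% of all genes) and 5 were lower (26.3%, against 12.0%). CCND1, described above, was 1 of the 5, and the median log2 change of the list was -0.20 against -0.01. The higher gene was CDK4, the kinase partner of D-type cyclins, at 93.2 to 100.5 FPKM in RA and 73.9 to 80.6 in control (log2 change 0.32, limma adjusted p = 0.00842, and 0.0784 after the correction for gene length). CDKN1A, the inhibitor p21, was at 262, 237 and 244 FPKM in RA replicates 1, 2 and 3 and at 400, 365 and 378 FPKM in control replicates 1, 2 and 3. CDKN1A fell by 0.62 on the log2 scale (limma adjusted p = 0.000654), with no overlap of the groups. CDKN1B, the inhibitor p27, had a log2 change of -0.33 (limma adjusted p = 0.0120, and 0.0538 without control replicate 3). The lower count was 3 without control replicate 2 and 2 without control replicate 3, where it was 1005 and 1113 over all genes, against 1750. The higher count was 2 without control replicate 1, where it was 1332 over all genes, against 2019.

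Markers of other somatic cells moved as well. Of 9 peritubular and fibroblast markers 6 were higher and 2 lower, where 13.9% of all genes were higher and 12.0% lower, and their sum was 1934 to 2223 FPKM in RA and 790 to 889 in control. Endothelial markers summed to 36.5 to 39.9 FPKM in RA and 33.1 to 35.0 in control, with 1 of 6 higher and 1 lower, close to the shares over all genes. Macrophage markers summed to 44.6 to 66.6 FPKM in RA and 40.0 to 45.0 in control, with 2 of 7 higher and 0 lower (1 lower without RA replicate 3). No marker of these lists was at 0. Their part in the changes of KITLG, DMRT1 and CCND2 was not tested.

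The order of levels of the 5 genes differed between the groups. In RA it was CCND2, KIT, SOHLH1, DMRT1 and KITLG from highest to lowest, with means of 29.1, 21.2, 17.7, 8.98 and 1.70 FPKM, and KIT and SOHLH1 overlapped. In control it was KIT, CCND2, SOHLH1, DMRT1 and KITLG, with means of 23.7, 20.0, 16.3, 15.3 and 6.41 FPKM, and SOHLH1 and DMRT1 overlapped. KITLG was the lowest in every library. The order depends on the listed gene lengths, which are 1222 bases for CCND2 and 3719 for KIT.

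Genes with the most similar pattern were taken as those of smallest mean absolute difference over the 6 libraries, on log2(FPKM + 1) values centred on the control mean, among 11630 protein-coding genes. For KITLG these were CD109, a cell surface protein that binds transforming growth factor beta, PRUNE2 and the splicing factor gene MBNL3, with differences of 0.063, 0.071 and 0.092. CD109 was at 6.73, 3.57 and 7.82 FPKM in RA replicates 1, 2 and 3 and at 16.8, 18.8 and 18.1 FPKM in control replicates 1, 2 and 3. These genes were picked for this likeness, so their shared order of libraries is no further result. Their listed lengths are 9665, 12795 and 10369 bases, longer than the 5803 bases of KITLG.

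For DMRT1 the nearest were NDRG2, the calcium-binding protein gene S100A6 and PSEN2, a catalytic part of gamma-secretase, with differences of 0.031, 0.034 and 0.035 and log2 changes of -0.68, -0.75 and -0.64. For CCND2 they were PLAU, the urokinase plasminogen activator, LRCH4 and SLC22A3, an organic cation transporter, with differences of 0.036, 0.038 and 0.043 and log2 changes of 0.46, 0.48 and 0.45. The adjusted p of SLC22A3 (limma) was 0.0211, and it was 0.0534 with RA replicate 1 left out and 0.0782 and 0.0812 with control replicates 2 and 3 left out in turn. All 6 genes were picked for their likeness to DMRT1 or CCND2, so their log2 changes and adjusted p-values are no further result. SLC22A3 reached the mean of 1 FPKM asked of such genes only through RA, with means of 1.39 FPKM in RA and 0.747 in control.

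**Figure D4:**
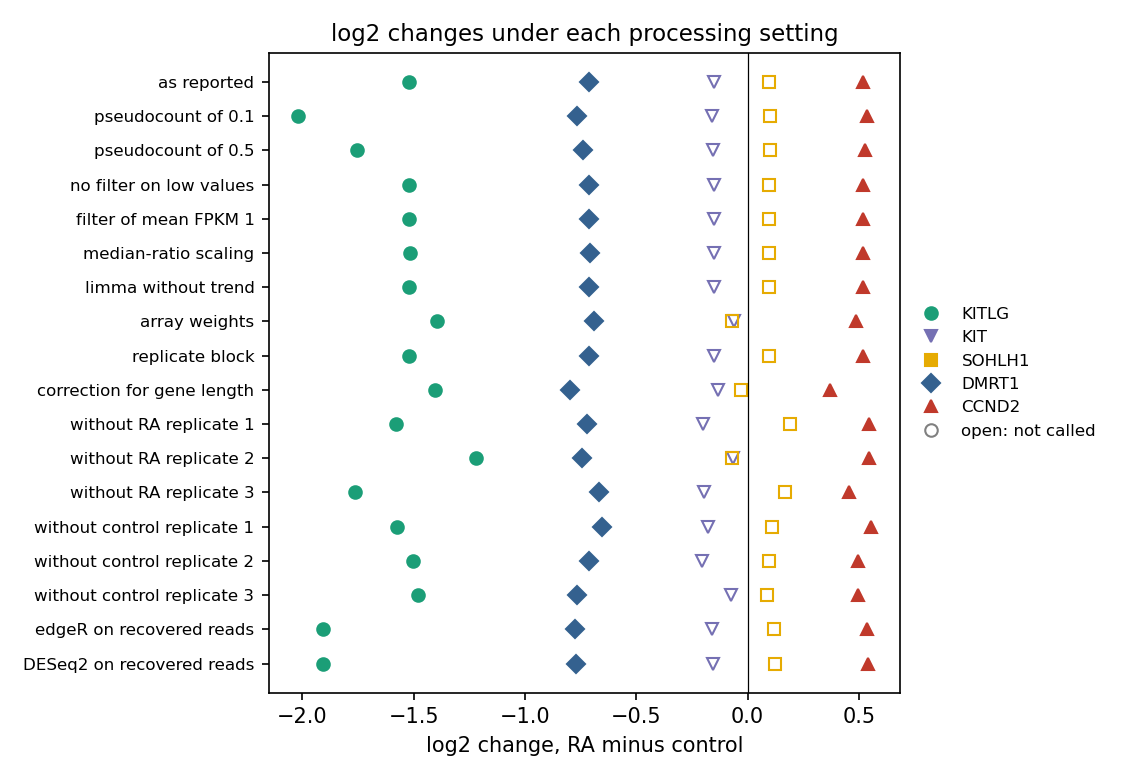
Log2 change of KITLG, KIT, SOHLH1, DMRT1 and CCND2 as reported and under 17 alternatives, with filled symbols where the adjusted p was under 0.05. KITLG ranged from -2.02 to -1.22, DMRT1 from -0.80 to -0.65 and CCND2 from 0.37 to 0.56, all called in each, while KIT and SOHLH1 were not called in any.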

How the data were processed

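Per the file headers, the deposited files hold FPKM values with gene lengths and coordinates for 29884 genes. For the genes the authors called, the deposited tables also hold whole-number counts, the log2 fold change, its p-value and the FDR. Sources used here do not name the aligner, counting tool or genome build. The RefSeq table for Sscrofa11.1 lists the 5 genes with the same start and end. Libraries were grouped by title.

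The filter (mean FPKM of 0.5 or more) left 14567 genes. Values on the log2(FPKM + 1) scale were fitted in limma 3.58.1 (R 4.3.3), allowing a variance trend. Multiplying FPKM by gene length and by the library's total came out whole, to within 0.05 reads, for 99.8% to 99.9% of non-zero values. Those reads entered edgeR 4.0.16 and DESeq2 1.42.0 as alternatives, without the 42 genes that were not whole in every library. The limma, edgeR and DESeq2 steps were tested on simulated data. The simulation gave every gene the same extra spread between replicates and set no library apart. It therefore cannot show how the steps perform with a library such as RA replicate 2. With 3 libraries a group, the smallest exact permutation p is 0.1, so no such test was run. Replicates of a group differed by more than sampling noise (mean chi-square per gene 15.3 to 103), so none was counted as a copy.

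The members and lists were chosen with earlier results of these data known. Of 177 list entries, 171 had a row, 2 of them through a human match. The rule for named genes takes the 5 genes, up to 4 genes of smallest p per list, the 2 nearest coding genes on each side within 500 kb, and the 3 genes of most similar pattern. Marker lists are given as counts and sums. Not every gene this rule picks is reported here. STAT3, STAT5A and CCND3 were named after their values were seen.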

Additional observations from a re-analysis of the deposited data

How the results depend on the processing

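Each result was recomputed under 17 alternatives, of which 6 left out a library. The members called higher (1) and lower (2) were the same under each. Among 865 recomputed log2 changes of 51 named genes, 821 kept their direction and side of the threshold, 20 lost the call, 10 gained one and 14 changed sign, none of the last being called in the analysis reported. SOHLH1 changed sign with array weights (-0.069), after the correction for gene length (-0.027) and without RA replicate 2, with a range of -0.067 to 0.190 when a library was left out. VILL, FAM162A and TMEM101 changed sign with array weights (-0.071, -0.065 and -0.067) and without RA replicate 2, with ranges of -0.020 to 0.228, -0.053 to 0.126 and -0.041 to 0.169 when a library was left out, and FAM162A and TMEM101 after the correction for gene length (-0.112 and -0.047). CLU changed sign after that correction (-0.024), DMRTB1 without RA replicate 1 (range -0.205 to 0.032 with a library left out) and TMTC3 without RA replicate 2 (range -0.380 to 0.055); the cause was not tested. All genes called higher numbered 2019, 3410 with array weights and 1202 to 2258 with a library left out. Genes called lower numbered 1750, 3621 with array weights and 1005 to 2256 with a library left out, where fewer libraries enter the fit. Array weights also moved list counts by over 1.5 times: to 2 lower for differentiating spermatogonia, 3 lower for bHLH genes (2 after the length correction), 3 higher for G1 genes, 2 higher for Leydig, 1 higher for melanocyte and 3 lower for endothelial markers (2 in edgeR and DESeq2). Without the filter, G1 genes had 3 lower and INHA was not called. A fit with the replicate number as a block called 1610 higher and 1405 lower and kept the 3 calls, while INHA and LIN28A lost theirs. Deviations of same-numbered libraries correlated at -0.214, -0.086 and 0.340, so the numbers were not taken to pair the samples, and not every library correlated best with its own number. KITLG in RA replicate 2 rests on 296 reads, the lowest depth behind any value of the 5 genes.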

Other observations

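KIT and SOHLH1, which were not called, also had close neighbours in pattern. For KIT these were AGTR1, an angiotensin receptor gene, THAP1 and TADA1, with mean absolute differences of 0.024, 0.024 and 0.030 on the log2(FPKM + 1) scale over the 6 libraries. AGTR1 was at 7.34 to 9.73 FPKM in RA and 9.01 to 11.2 in control. For SOHLH1 the nearest were VILL, FAM162A and TMEM101, with differences of 0.030, 0.034 and 0.034. FAM162A was at 40.0, 51.5 and 41.6 FPKM in RA replicates 1, 2 and 3 and at 42.1 to 42.8 FPKM in control. These genes were picked for their likeness, so the libraries in which they are high or low are no further result. Without RA replicate 2 the log2 changes of AGTR1, THAP1 and TADA1 were -0.04, -0.07 and -0.09.

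DCT, a pigment enzyme gene of the KIT-dependent melanocyte lineage, was at 0.355, 0.173 and 0.243 FPKM in RA replicates 1, 2 and 3 and at 1.05, 0.936 and 0.782 FPKM in control replicates 1, 2 and 3. Its mean passed the filter only through the control libraries, so no test is given. TMTC3, the coding gene nearest to KITLG at a gap of 218 kb, was at 1.77, 0.728 and 2.16 FPKM in RA replicates 1, 2 and 3 and at 1.50 to 2.20 FPKM in control (log2 change -0.20, limma adjusted p = 0.518), and its lowest value was in RA replicate 2, as for KITLG.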
